A study of Mus musculus with 3 samples.

Results

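Lcn2, Saa3, C3, Hp, Cp, Fetub and Bpifb4 were grouped under acute-phase and antimicrobial defence. Their products are mostly secreted proteins of blood plasma and mucosal surfaces. The grouping is a label, and no such role of Fetub or Bpifb4 was tested. The genes were chosen by symbol from earlier results of these data. In those results, several of them differed most between the 2 lines that carry the miR-17~92 microRNA cluster. A probe set annotated to a single gene was found for 6 of the 7, each with 1 probe set, out of 19938 genes measured. C3, the central component of complement, was under no probe set of the annotation used and is not analysed here. Of the 6, 5 passed a filter on low values, and Hp did not. The filter asked for a mean over the 3 columns at or above the median of all genes, 7.13 on the log2 scale. A gene can pass it through 1 high column, so passing does not show a signal in each column.

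The cells were CT26, a mouse colon carcinoma line kept in culture. All 3 groups had been stably transfected with a puromycin-resistance and GFP vector, sorted by flow cytometry for GFP and cloned by dilution. miR-Ctrl (Ctrl) carried the vector with a control microRNA, miR-17~92Med (Med) carried the cluster at a medium level, and miR-17~92Hi (Hi) carried it at a high level. Each group was given as 1 column of deposited log2 values, although the design text speaks of 3 subclones a group, and the sources used here do not say whether a column is a clone, pooled RNA or a mean. With 1 column a group there was no replicate error and no test, so higher and lower describe these columns, and a clone and its labelled microRNA level cannot be told apart.

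The acute-phase response is the change in secreted plasma proteins that follows infection or injury. Interleukin-6 acts through STAT3, and interleukin-1 and TNF act through NF-kB, together with C/EBP factors, to induce genes of this class in the liver. Lcn2, Saa3 and several others are also made outside the liver, by epithelial cells, macrophages and tumour cells. Their products bind what microbes need or display, such as iron carriers, free hemoglobin and bacterial lipids.

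The Ctrl column stood apart from the others in ways that touch every comparison with it. A pair of mitochondrially encoded mRNAs with gene-level values, COX2 and ND3, lay between 5.07 and 6.00 in Ctrl, between 12.49 and 13.40 in Med and between 12.21 and 13.31 in Hi. Of the 35556 probe sets, 15551 (43.7%) held identical values in Med and Hi, and 2815 (7.92%) were identical in all 3 columns. None of the 6 genes (0) was identical in Med and Hi. As a gauge of background, the upper bound of the central 95% of 1190 olfactory and vomeronasal receptor genes, called the receptor bound here, was 7.38 in Ctrl and 6.51 in Med and in Hi. A gene under the bound may hold little signal, and a fold against such a level has no known size. A 2-fold difference (1 on the log2 scale) was used to count genes as apart.

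Hi held higher levels than Med for all 6 genes, by 2-fold or more for Lcn2, Saa3, Fetub and Bpifb4 and by less for Cp and Hp. These differences are the ones the genes were chosen on and are given as a description. In the same contrast 0.682% of the genes past the filter were higher by 2-fold and 0.863% lower, or 0.406% and 0.512% of all genes, and nothing is read from the count of 4 of 6 against those shares. The median difference over the 6 genes was 2.71, against 0.00 over all genes. It follows from the same choice, so nothing is read from it either.

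Lcn2 encodes lipocalin-2, which captures the iron-loaded siderophores of bacteria and so keeps iron from them. Its level was 6.82 (Ctrl), 9.65 (Med) and 12.63 (Hi). Hi minus Med was 2.98 (7.91-fold) and Med minus Ctrl 2.83 in the deposited values. Over the scalings tried, Med minus Ctrl was between 1.77 and 3.13, with the lowest value from loess scaling. Only 2 of the genes past the filter had a larger Hi minus Med difference, as Lcn2 was at rank 3 from the top. The genes were chosen on this contrast, so the rank is a description. The Ctrl level lay under the receptor bound, so Med minus Ctrl and the 5.81 for Hi minus Ctrl have uncertain sizes. Whether the 2 steps are alike in size is thus not known.

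Saa3 encodes a serum amyloid A protein, an acute-phase apolipoprotein that is made largely outside the liver in mice. It was at 7.01 (Ctrl), 7.80 (Med) and 10.48 (Hi). Hi stood alone as the high column, 2.68 above Med (6.40-fold) and 3.46 above Ctrl. Med was 0.79 above Ctrl, under 2-fold, and between 0.19 and 1.08 above it over the scalings tried, with the highest value from columns centred over all probe sets.

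Fetub encodes fetuin-B, a plasma protein of the cystatin superfamily that inhibits the protease ovastacin and keeps the mouse egg coat open to sperm. The gene was at 6.38 (Ctrl), 6.47 (Med) and 9.39 (Hi). Both lower columns lay within the receptor bound, and only Hi held a level above it. Ctrl and Med were also under the filter's cut of 7.13, so Fetub passed the filter only through Hi. Hi minus Med was 2.92 (7.57-fold), whose size is uncertain because Med was near background.

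Bpifb4 belongs to the family of bactericidal/permeability-increasing proteins, which includes lipid-binding proteins of airway and mouth secretions. Its levels were 7.52 (Ctrl), 6.28 (Med) and 9.02 (Hi). Med was the lowest column, below its receptor bound, so the order of the columns did not follow the labelled microRNA level. The Ctrl level lay just above the bound, which was 7.38 in Ctrl and 6.51 in Med. The step from Ctrl to Med was thus near background and of uncertain size. Med was also under the filter's cut of 7.13, and the high Hi level raised the mean that passed it. Hi minus Med was 2.74 (6.70-fold), of uncertain size for the same reason as in Fetub, and Hi minus Ctrl 1.51. Med minus Ctrl was -1.24, and between -1.83 and -0.94 over the scalings tried, under 2-fold with columns centred over all probe sets.

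Cp encodes ceruloplasmin, the copper-carrying ferroxidase of plasma that oxidises iron for loading onto transferrin. It differed in pattern from Lcn2, with 7.0 (Ctrl), 11.71 (Med) and 12.51 (Hi). Hi and Med were both far above Ctrl, by 5.51 and 4.71, and Hi minus Med was 0.80 (1.75-fold). As for Saa3, the Ctrl level of Cp lay under the receptor bound, so the sizes against Ctrl are uncertain. Hp encodes haptoglobin, which binds free hemoglobin and limits both its toxicity and its use as an iron source. Hp was at 6.98 (Ctrl), 6.56 (Med) and 6.78 (Hi). Its level was below the filter and close to the receptor bound in all 3 columns, and its Hi minus Med difference was 0.22 (1.16-fold).

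**Figure D1:**
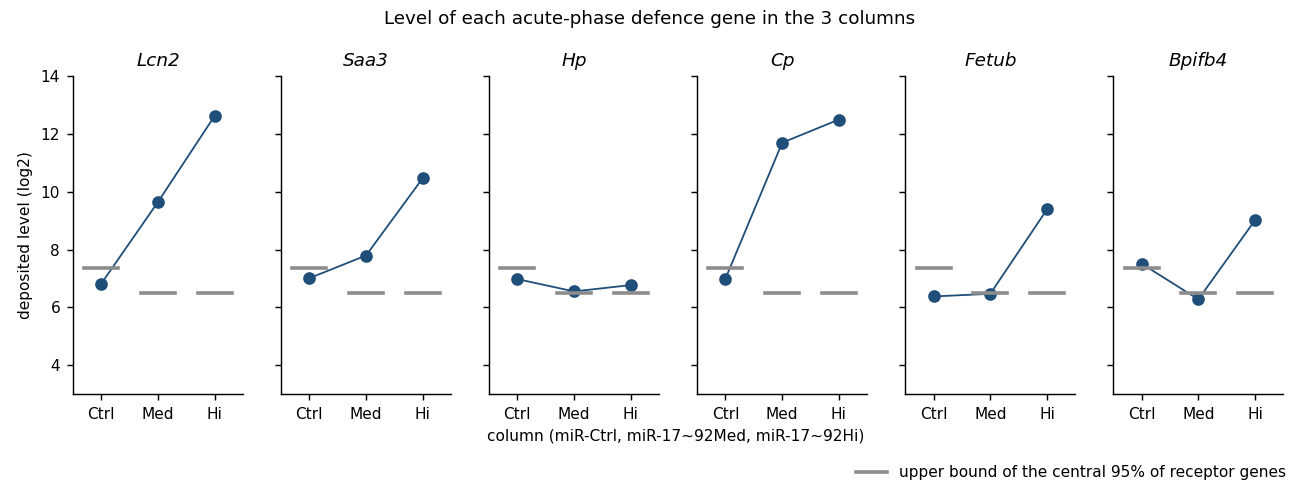
Deposited log2 level (y axis) of each of the 6 genes in the Ctrl, Med and Hi columns (x axis), 1 point a column, with grey bars at the receptor bound of that column. Lcn2 is lowest in Ctrl, where it lies under the bound, and highest in Hi. Saa3 and Fetub are high in Hi, Cp is high in Med and Hi, Bpifb4 is lowest in Med, and Hp stays between 6.56 and 6.98.

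Against Ctrl, 5 of the 6 genes were at least 2-fold higher in Hi and 2, Lcn2 and Cp, in Med. Bpifb4 was 2-fold lower in Med, with both levels near the receptor bounds of their columns. Such differences were common, since Hi was above Ctrl by 2-fold in 33.5% of genes past the filter and below it in 8.40%, and Med in 34.9% and 8.70%. Over all genes these shares were 17.5% above and 15.4% below for Hi, and 18.3% and 16.3% for Med. Both comparisons use the same Ctrl column. Each also shares a column with the contrast on which the genes were chosen, so nothing is read from the members' counts. The Ctrl levels of Lcn2, Saa3, Cp and Fetub lay under the receptor bound. The higher share of the genes called was 79.9% for Hi and 80.0% for Med, 57.9% and 57.0% with quantile normalization, 68.7% and 68.2% with loess scaling, and 90.7% and 89.9% with columns centred over all probe sets. With columns centred over the genes past the filter it was 57.7% and 56.7%. Under that last scaling Bpifb4 was 0.97 for Hi minus Ctrl, under 2-fold, and the sign of Fetub in Med turned (-0.51). For Hp the sign against Ctrl also turned, between -0.75 and 0.37 for Hi over the scalings tried.

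**Figure D2:**
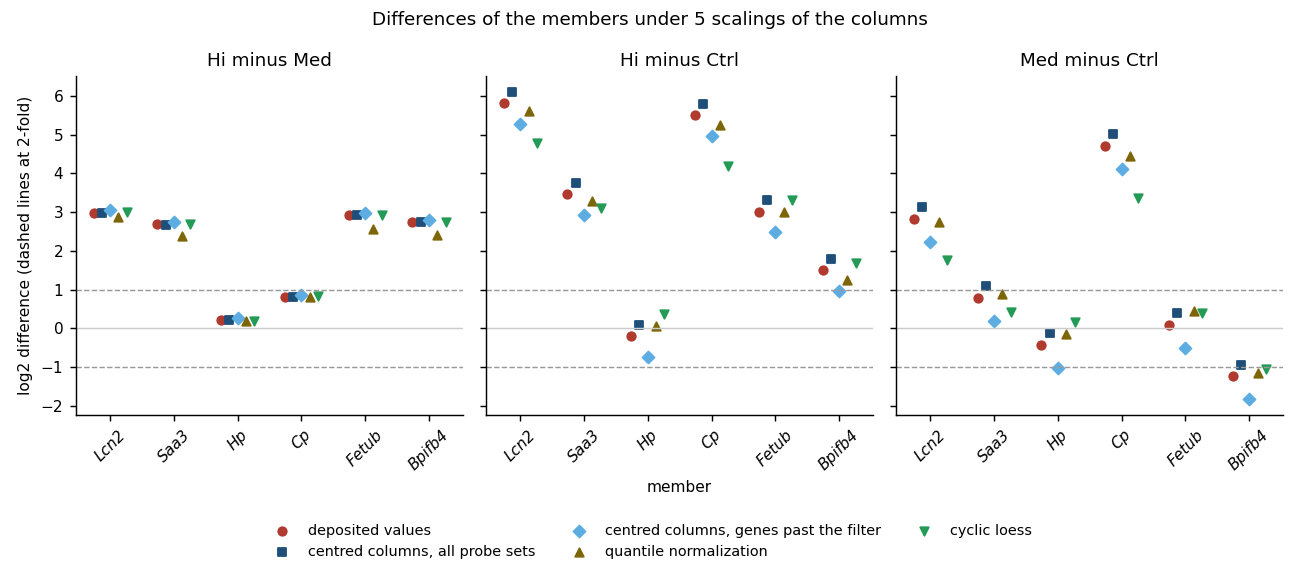
Log2 differences (y axis) of the 6 genes (x axis) for Hi minus Med, Hi minus Ctrl and Med minus Ctrl, 1 marker for each of 5 scalings of the columns, with dashed lines at 2-fold. The Hi minus Med values of Lcn2 stay between 2.87 and 3.04, and those of Bpifb4 between 2.42 and 2.80, while Med minus Ctrl of Cp ranges from 3.36 to 5.0.

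The stretches before the starts of the 4 genes that were 2-fold higher in Hi than in Med are shown because genes of the acute-phase class are known to be switched on through C/EBP, NF-kB and STAT3 sites near their starts. Each is the 250 bases before a start in RefSeq's annotation of GRCm38.p6, 5′ to 3′ on the gene's strand, and capitals mark TTGCNNAA, a form of the C/EBP site, searched on both strands.
Lcn2 (chr2:32387740-32387989, minus strand): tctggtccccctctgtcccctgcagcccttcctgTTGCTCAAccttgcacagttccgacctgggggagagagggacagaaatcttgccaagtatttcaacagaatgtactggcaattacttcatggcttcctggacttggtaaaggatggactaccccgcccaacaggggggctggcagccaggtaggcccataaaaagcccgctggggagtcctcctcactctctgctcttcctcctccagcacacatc
Saa3 (chr7:46715677-46715926, minus strand): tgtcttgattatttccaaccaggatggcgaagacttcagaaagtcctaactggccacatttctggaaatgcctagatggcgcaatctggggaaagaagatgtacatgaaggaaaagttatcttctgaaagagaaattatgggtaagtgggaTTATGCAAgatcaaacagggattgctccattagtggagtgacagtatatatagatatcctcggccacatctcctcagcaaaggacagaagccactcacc
Fetub (chr16:22918132-22918381, plus strand): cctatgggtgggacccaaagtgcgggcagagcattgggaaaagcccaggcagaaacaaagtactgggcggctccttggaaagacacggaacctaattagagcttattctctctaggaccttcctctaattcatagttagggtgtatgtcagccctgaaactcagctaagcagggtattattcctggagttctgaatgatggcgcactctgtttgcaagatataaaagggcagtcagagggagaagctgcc
Bpifb4 (chr2:153940612-153940861, plus strand): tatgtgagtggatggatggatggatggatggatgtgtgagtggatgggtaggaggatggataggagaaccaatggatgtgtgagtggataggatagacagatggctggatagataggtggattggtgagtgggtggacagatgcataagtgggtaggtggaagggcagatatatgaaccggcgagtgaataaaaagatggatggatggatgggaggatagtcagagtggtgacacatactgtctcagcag

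Windows were available for 6 of the 7 genes, among them C3 and not Hp, and Cp and Fetub had more than 1 (the upstream one of Fetub is shown). TTGCNNAA stood once before Lcn2, 216 to 209 bases from the start, and once before Saa3, 99 to 92 bases from it, where it is read on the opposite strand. The same letters stood 45 to 38 bases before C3 and 70 to 63 bases before a start of Cp, and in no window of Fetub or Bpifb4. Over all 32851 windows of this length, 9.56% held them. The STAT motif TTCNNNGAA and the kappaB consensus of NF-kB were in none of these windows (0), against 7.02% and 7.25% of all windows. The letters were picked with the members' values known, and 7 patterns were tried in all. Looser forms were common: the looser kappaB form (GGG and CC with 4 or 5 bases between) was in 57.0% of all windows and before Lcn2, C3, Fetub and a start of Cp, and the looser STAT form (TTC and GAA with 2 to 4 bases between) was in 18.5% and before Lcn2 and Saa3. A separate pattern tried for C/EBP (T, then T or G, then NNNGNAA) was in 58.2% of all windows and before Saa3, C3, Cp and Fetub. It is not a looser form of TTGCNNAA, as the window of Lcn2 held TTGCNNAA and not this pattern. TATAA was in 22.8% of all windows and before a start each of Cp and Fetub. Capitals mark the 1 pattern of the 7 that is shown, and such matches are descriptions of letters.

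Of 31 other genes that are known to be raised in the acute phase and had a value, only Lbp was 2-fold higher in Hi than in Med, and 0 were lower. The list's median difference was 0.00, like that over all genes, 12 of the 31 held identical values in both columns, and 26 were below the filter. Lbp encodes the plasma protein that hands bacterial lipopolysaccharide to its receptor, and it was at 7.28 (Ctrl), 6.74 (Med) and 8.36 (Hi). The close relatives of Saa3 stayed low, with Saa1 at 4.95 (Ctrl), 3.81 (Med) and 3.81 (Hi), Saa2 at 5.77, 5.23 and 5.10, and Saa4 at 4.90, 4.66 and 4.66 in the same order. Saa1 and Saa2 are near-identical genes whose probe sets may share signal. The metallothioneins Mt1 and Mt2, which bind zinc and copper, were high in every column and higher in the lines with the cluster, with 10.02, 12.51 and 12.72 for Mt1 and 9.92, 13.41 and 13.45 for Mt2 in the order Ctrl, Med, Hi. The 8 proteins that fall in the acute phase, albumin and transthyretin among them, had 0 genes past the filter and none apart between Hi and Med. Most measured acute-phase genes were thus at low levels in all columns.

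Secreted antimicrobial proteins gave a similar picture. Among 27 with a value, 2 were 2-fold higher in Hi than in Med and 0 lower, with a median of 0.00. Identical values in both columns were held by 12 of the 27. Slpi, a protease inhibitor of mucosal secretions, was at 8.23 (Ctrl), 8.93 (Med) and 11.25 (Hi). Wfdc2, a related secreted protein with whey acidic protein domains, was at 7.03, 11.15 and 12.32. Only 3 of the 27 passed the filter, and the neutrophil genes S100a8, Ltf and Camp were at 5.60, 5.43 and 6.05 in Hi.

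Complement genes other than C3 had 38 members with a value and 4 past the filter, none of the 4 being 2-fold apart between Hi and Med. Identical values in Hi and Med were held by 17 of the 38. Clu, a clearing protein that restrains the terminal complex, was at 8.33 (Ctrl), 8.33 (Med) and 8.49 (Hi), and Masp1, a protease of the lectin pathway, at 6.68, 7.97 and 7.83. Below the filter, the C1 protease gene C1s1 was at 4.86 (Ctrl), 4.74 (Med) and 7.02 (Hi). Hi was the only column in which it lay above the receptor bound. C3ar1, a receptor for a fragment of C3, and Itgam, a subunit of a receptor for bound C3, were at or below 5.89 in every column.

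Genes of iron, copper and heme handling, the business of Lcn2, Cp and Hp, did not differ by 2-fold between Hi and Med in any of 30 members, 15 of them past the filter. The furthest were Lrp1, an endocytic receptor that also clears heme-bound hemopexin, at 10.86 in Hi and 11.78 in Med, and the heme oxygenase Hmox1, at 8.79 in Hi and 9.29 in Med. Slc22a17, reported as a receptor for lipocalin-2, was at 7.22 in both Hi and Med, with 8.82 in Ctrl. Cd163, the macrophage receptor for haptoglobin bound to hemoglobin, was at 5.23 in both and at 5.92 in Ctrl. Of the 30 genes, 11 held identical values in Hi and Med, Slc22a17 and Cd163 among them.

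Cytokines, receptors and regulators that act upstream of the acute phase had 44 members with a value and 36 past the filter, and 0 were 2-fold apart between Hi and Med. Of the 44, 19 were above 0, 3 below and 22 identical, with a median of 0.00. The TNF receptor Tnfrsf1b was at 9.87 in Hi and 9.28 in Med, and the bacterial lipoprotein receptor Tlr2 at 9.28 in Hi and 8.70 in Med. Nfkbiz, a nuclear IkB protein needed for Lcn2 induction in mouse cells, was at 8.47 (Ctrl), 8.85 (Med) and 9.21 (Hi). Il6 was low in every column, at 3.64, 3.59 and 3.59. Stat3 was at 10.43 and Cebpd at 6.43 in all 3 columns, values that were identical to the last deposited digit. Cebpb was at 9.68, 8.97 and 9.0, and Socs3, an inhibitor that STAT3 induces, at 7.66, 7.21 and 7.24. Against Ctrl, 2-fold higher levels were held by 14 of the 36 regulators past the filter for Hi and by 14 for Med. Among all genes past the filter the shares were 33.5% for Hi and 34.9% for Med, so nothing is read from these counts. Il1r1 had no single-gene probe set and is not analysed here.

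**Figure D3:**
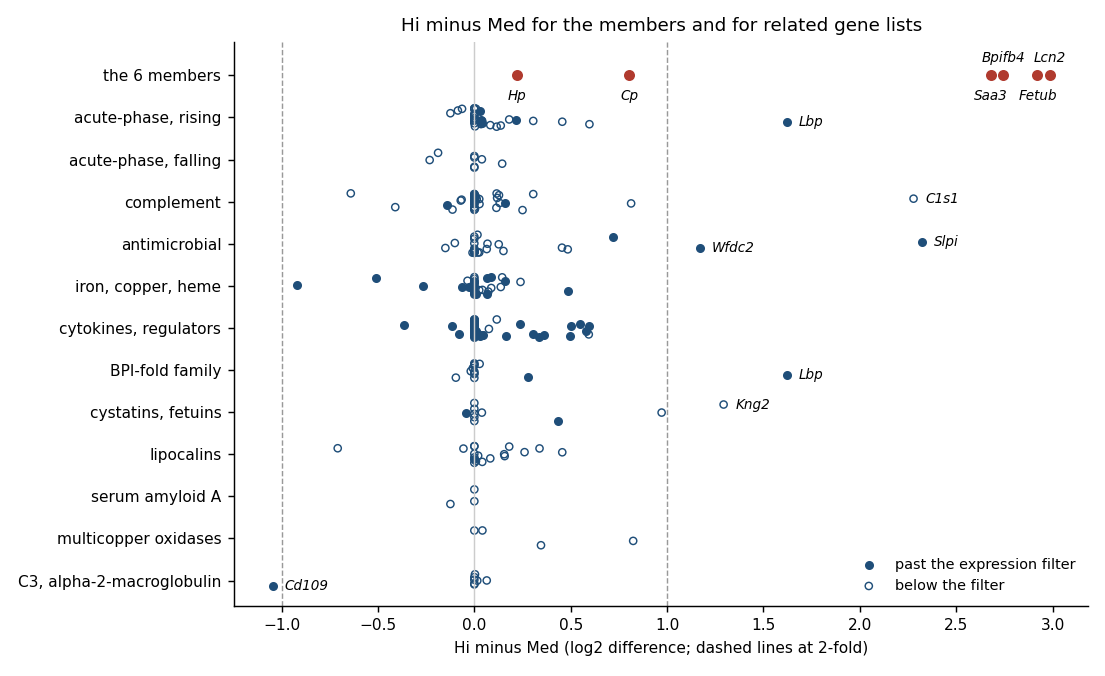
Hi minus Med log2 differences (x axis) for the 6 members (red, top row) and for every gene with a value in the 12 related lists (blue, 1 row a list, filled where past the expression filter), with dashed lines at 2-fold. Most list genes lie near 0, Lbp, Slpi, Wfdc2, C1s1 and Kng2 lie beyond 2-fold on the higher side, and Cd109 (-1.05) lies beyond it on the lower side.

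The protein families of the members were then compared. Among 13 BPI-fold genes only Lbp was 2-fold apart between Hi and Med, and Pltp, a plasma phospholipid transfer protein, was at 11.43 in Hi and 11.16 in Med. Of 18 other lipocalins none was 2-fold apart and 1, Ptgds, passed the filter at 7.60 in every column. Of the 4 relatives of ceruloplasmin with a value none was 2-fold apart or past the filter. In the family of C3 and alpha-2-macroglobulin, the membrane-bound Cd109 was lower in Hi than in Med, at 8.41 and 9.46, and at 6.50 in Ctrl. It was under 2-fold with quantile normalization and with columns centred over the genes past the filter.

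Fetub lies in a cluster of cystatin-family genes on chromosome 16, and a pair of them shared its direction. In RefSeq's gene order, the kininogen genes Kng2 and Kng1, precursors of bradykinin, followed Fetub and Hrg. Kng2 was at 7.74 in Hi and 6.45 in Med, and Kng1 at 6.10 in Hi and 5.12 in Med, differences of 1.29 and 0.97. Both are near-identical copies below the filter, so their probe sets may share signal. Ahsg, which encodes fetuin-A and adjoins Fetub, was at 5.63 in Hi and 5.59 in Med. Hrg, which adjoins Fetub on the other side, was at 4.70 in both. Of the 5 measured genes on each side, Kng2 alone was 2-fold apart. For Lcn2, Saa3, Hp, Cp and Bpifb4, 0 of 10 measured neighbours were 2-fold apart. The largest of their differences was 0.84, for 1110008P14Rik, the gene that adjoins Lcn2 on chromosome 2. Bpifb4 lay apart in value from its chromosome 2 neighbours Bpifb3 and Bpifa6, which differed by -0.01 and 0.00 between Hi and Med.

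**Figure D4:**
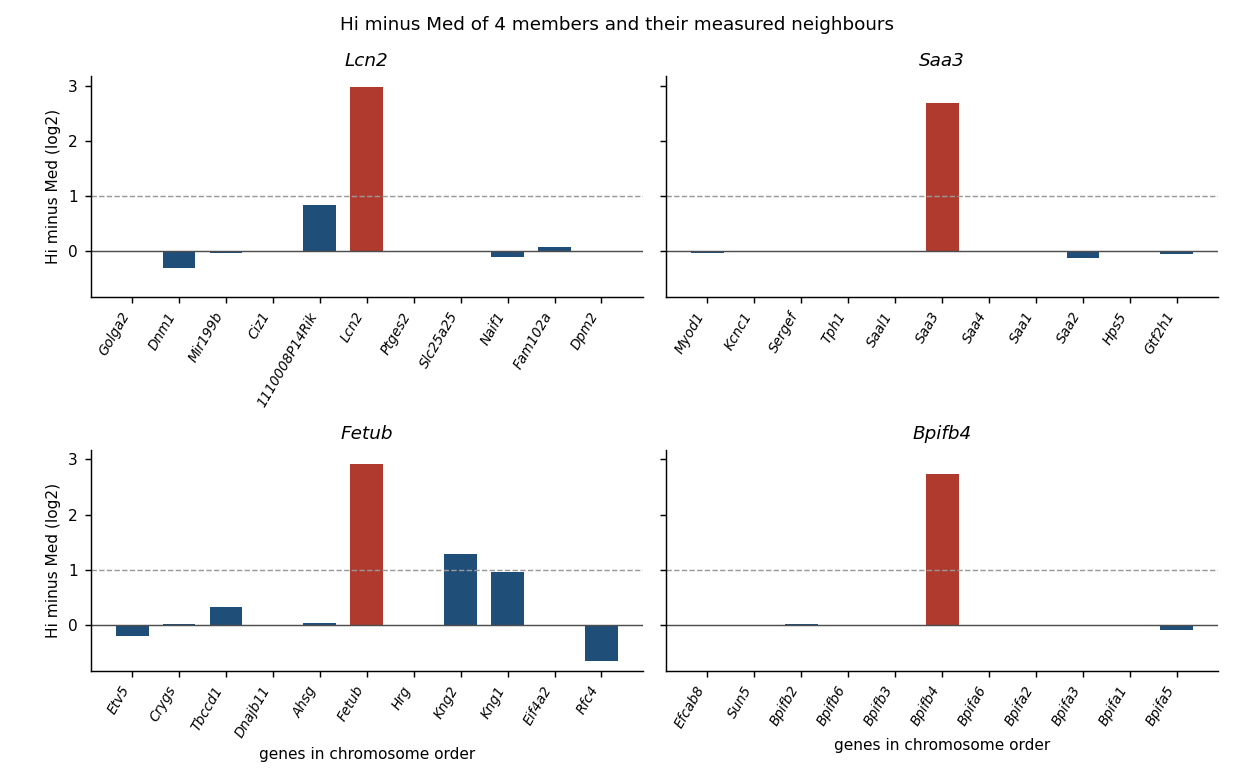
Hi minus Med log2 difference (y axis) of Lcn2, Saa3, Fetub and Bpifb4 (red bars) and of the 5 measured genes on each side in chromosome order (blue bars, x axis by gene), with a dashed line at 2-fold. Fetub adjoins Ahsg (0.04) and Hrg (0.00), with Kng2 (1.29) and Kng1 (0.97) beyond Hrg, while the neighbours of the others stay under 2-fold.

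Likeness to Lcn2 and to Saa3 was measured over the 3 columns as the Euclidean distance between levels centred on each gene's own mean, which uses the same values as the choice of the members. Nearest to Lcn2 was the neutrophil-attracting chemokine Cxcl5 at a distance of 0.87, with 6.88 (Ctrl), 10.75 (Med) and 12.65 (Hi). Snord118 (1.14), Idh1 (1.17), Emb (1.21) and Wfdc2 (1.32) followed. Nearest to Saa3 was the aldehyde dehydrogenase Aldh3a1 at a distance of 0.23, with 7.39, 8.40 and 11.16. Slpi (0.33), Ogn (0.48), Fetub (0.50) and Neurl3 (0.68) came next. Among the members, Saa3 and Fetub were the closest pair, and Cp and Hp the furthest apart (4.45). With 3 columns such distances order the genes and carry no error.

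Markers of hepatocytes, neutrophils and macrophages, other cell types that make these proteins, were mostly under the receptor bound, while those of fibroblasts were mostly above it. The 9 hepatocyte markers lay between 5.06 and 7.89 in Ctrl, between 3.97 and 6.97 in Med and between 3.88 and 6.97 in Hi, and 6 of them, Alb among them, were under the bound in every column, while Apoa2 and Hnf4a were above it in every column. The 10 neutrophil markers lay between 5.49 and 7.68 in Ctrl, between 5.01 and 6.33 in Med and between 5.03 and 6.51 in Hi, with 0 past the filter and 9 under the bound in every column. The 10 macrophage markers lay between 5.12 and 7.48 in Ctrl, between 4.63 and 9.12 in Med and between 4.70 and 7.67 in Hi, with 7 under the bound in every column, Ptprc among them, and Cd68 lower in Hi (7.67) than in Med (9.12). What part such cells have in the results was not tested, and in bulk RNA more cells that express a gene and more RNA per cell cannot be told apart. Of the 7 fibroblast markers, 4 were above the bound in every column (Col1a1, Col1a2, Col3a1 and Thy1) and 2 under it in every column (Dcn and Lum). Pdgfra was above it in Med and Hi and under it in Ctrl. The fibroblast list had 5 genes past the filter and 0 that were 2-fold apart between Hi and Med. The epithelial and colon markers were divided: of 12, 6 were above the bound in every column (Krt8, Krt18, Krt19, Cdx1, Cldn3 and Cldn4), 5 were under it in every column (Epcam, Krt20, Cdh1, Vil1 and Cdx2), and Lgals4 was above it in Med and Hi and under it in Ctrl. Krt18 was at 7.97 (Ctrl), 11.41 (Med) and 12.28 (Hi), Krt8 at 8.92, 7.28 and 7.32, Cdx1 at 8.95, 7.24 and 7.45, and Epcam at 6.15, 5.14 and 5.14 in the same order.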

How the data were processed

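The members, lists and comparisons were chosen with earlier results of these data known. Per the labels' protocols, cDNA was made from 100 ng of RNA by linear amplification and the labelled cRNA was hybridized to an Affymetrix array; Affymetrix Expression Console and GCRMA are named in the submitters' processing notes, with no role or version. The deposited values (2.13 to 14.8) were taken as log2 from their range, and no source used here names the base or says whether the authors pooled samples. Gene names came from GEO's platform annotation, updated by gene number to RefSeq's table of GRCm38.p6 (21698 of 21789 single-gene probe sets, 99.6%); the 1621 probe sets with several genes named none and 12146 had no gene listed. Probe sets of 1 gene were averaged (999 genes had several). Of 19938 genes, 9969 passed the filter. Differences were computed with Python 3.11.15 and pandas 2.3.3, and scaled columns with limma 3.58.1 in R 4.3.3. The 2-fold call was also run on simulated columns with the small noise of the receptor genes and shifts set well beyond 2-fold. Its recovery there was set in advance, so that run checks the code and says nothing of clone or array variation. Unmapped per-sample columns numbered 0. With 1 column a group, the number of arrays limits the precision.

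Genes were named by a rule: in each of 12 lists, those past the filter and 2-fold apart between Hi and Med, or else the 2 furthest, with any other gene of the list that was 2-fold apart; a set of receptors and regulators; and the 5 genes most like Lcn2 and Saa3. Mt1, Mt2, Saa1, Saa2, Saa4, Pltp, Kng1, S100a8, Ltf, Camp, the named neighbours and the genes of the closing section were named after their values were seen. The furthest genes of the cystatin list, Cstb (10.66 in Hi, 10.22 in Med) and Cst3 (13.04 in Hi, 13.09 in Med), were under 2-fold apart. The motif patterns were chosen after the values were seen. Alternatives were 4 scalings, 1 of them added after seeing the data, the highest probe set of each gene, no filter, a filter on Med and Hi alone, and a 1.5-fold call.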

Additional observations from a re-analysis of the deposited data

How the results depend on the processing

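A single difference was held to be unchanged where it kept its sign and its side of 2-fold, since no replicate spread exists. All 30 alternative values of Hi minus Med for the 6 genes (4 scalings and the highest probe set) did so, as did 26 of 30 for Hi minus Ctrl and 25 of 30 for Med minus Ctrl, and 0 differences past 2-fold changed sign. The exceptions were Hp, Saa3, Bpifb4 and Fetub against Ctrl. The members are counted over all 6, so a change of filter cannot move their counts.

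Over all genes, the number lower than Ctrl (837 in Hi, 867 in Med) was 416 and 469 with columns centred over all probe sets, 1781 and 1875 with quantile normalization, 3077 and 3256 with no filter, 552 and 574 with the filter on Med and Hi, 1448 and 1460 at 1.5-fold, and 1637 and 1746 with columns centred over the genes past the filter, a setting chosen after seeing the data that moves differences from Ctrl the opposite way to the other centring. With it 2282 genes were higher in Med, against 3475. Between Hi and Med, 47 genes were lower with quantile normalization, against 86, and at 1.5-fold 172 were higher and 347 lower, against 68 and 86.

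List counts of genes 2-fold apart were recomputed in all 3 comparisons, and 7 of 96 alternative counts for Hi minus Med, 13 of 96 for Hi minus Ctrl and 15 of 96 for Med minus Ctrl moved by over 1.5 times. For Hi minus Med, the C3 and alpha-2-macroglobulin family had 0, against 1, with quantile normalization and with columns centred over the genes past the filter; complement had 1, against 0, with no filter; the cystatins had 1, against 0, with no filter and with the filter on Med and Hi; and the iron and cytokine lists had 1 each, against 0, at 1.5-fold. Without the filter, the counts for Hi minus Ctrl and then Med minus Ctrl were 6 and 6 for the raised acute-phase genes (3 and 2 with it), 2 and 2 for the lowered ones (0 and 0), 10 and 10 for complement (1 and 1), 7 and 9 for antimicrobial proteins (3 and 1), 5 and 4 for lipocalins (0 and 0), 1 and 1 for serum amyloids (0 and 0), 6 and 5 for BPI-fold genes (2 and 1), and 3 and 3 for the C3 family (1 and 1). The multicopper oxidases had 1 for Med minus Ctrl, against 0. Quantile normalization gave the lowered acute-phase genes 1 for Hi and 1 for Med, against 0, and the antimicrobial list 2 for Med, against 1. The filter on Med and Hi gave complement 2 for Hi, against 1, and the 1.5-fold call gave the antimicrobial list 3 for Med, against 1. Columns centred over the genes past the filter gave the raised acute-phase genes 4 for Med, against 2, complement 0 for both, against 1, the iron list 6 for Hi, against 10, and the BPI-fold genes 1 for Hi and 2 for Med, against 2 and 1. Apart from the changes of filter and fold, the cause was not tested. No paired analysis was possible because each group has 1 column. Levels near the receptor bound limit what can be said of Fetub, Bpifb4, Hp and most list genes.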

Other observations

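Further genes of the lists are given as values with no explanation, named after their values were seen. Nos2, the inducible nitric oxide synthase, was at 7.54 (Ctrl), 8.18 (Med) and 8.90 (Hi), and C1ra, the partner protease of C1s1, at 6.39, 6.72 and 7.53 in that order. Il6st, the shared signalling chain of the interleukin-6 receptor family, was at 6.38 (Ctrl), 10.49 (Med) and 10.79 (Hi), and Osmr, the oncostatin M receptor, at 6.22, 8.64 and 8.81. Nfkbia, an NF-kB inhibitor that NF-kB itself induces, was at 9.26 (Ctrl), 11.52 (Med) and 12.07 (Hi). The lipopolysaccharide receptor Tlr4 was at 5.89, 8.82 and 9.32, and Ftl1, the ferritin light chain, at 8.92, 12.41 and 12.90. None of these 7 genes was 2-fold apart between Hi and Med. The Ctrl levels of C1ra, Il6st, Osmr and Tlr4 lay under the receptor bound of 7.38, so their differences from Ctrl have uncertain sizes. The Ctrl column as a whole stood apart from both others, as described.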
